A study of Mus musculus with 6 samples.

Results

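The voltage-gated sodium channel genes described here are 8 members found by symbol in the authors' table of 30821 genes: the alpha subunit genes Scn1a, Scn2a, Scn3a, Scn8a and Scn7a, and the beta subunit genes Scn2b, Scn3b and Scn4b. All 8 passed the filter on low counts, among 16758 genes tested. The study made 6 RNA libraries of hippocampus from male C57BL/6J mice that had virus injected at 8 weeks of age into the CA1 field on both sides. For 3 libraries the adeno-associated virus was labelled AAV-CaMKIIα-TAF15, with the CaMKIIα promoter of excitatory neurons (TAF15 OE), and for 3 it was a control AAV (Control), for which the labels name no promoter. The hippocampus was taken, not the injected field alone, and the labels do not say whether each library came from a single mouse, so p-values measure the spread between these libraries. The labels give 31 days for both groups. TAF15 is an RNA-binding protein that also associates with the general transcription factor TFIID, and the comparison asks which transcripts differ when it is raised.

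Voltage-gated sodium channels open on depolarisation and carry the rising phase of the action potential. Each channel has one alpha subunit, a large protein that forms the pore and holds the voltage sensors, together with beta subunits, small single-pass membrane proteins with an immunoglobulin-like domain. The beta subunits alter gating and surface expression and act as adhesion molecules. Those encoded by Scn2b and Scn4b are bound to the alpha subunit by a disulfide bond, whereas that encoded by Scn3b is held without one. In hippocampal neurons the channels are concentrated at the axon initial segment, where spikes begin.

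The 3 beta subunit genes were lower in TAF15 OE than in Control, and among the 5 alpha subunit genes only Scn8a was. Scn4b was 2.74-fold lower, Scn3b 1.76-fold, Scn8a 1.38-fold and Scn2b 1.30-fold. No member was higher at an adjusted p below 0.05 in edgeR's quasi-likelihood test or in DESeq2, and 0 were higher at an unadjusted p below 0.05 by edgeR. Genes called lower made up 5.95% of all genes tested and genes called higher 9.32%, against 4 and 0 of the 8 members. The median log2 fold change was -0.82 over the beta genes, -0.15 over the alpha genes and 0.026 over all genes tested. Scaling on the counts of pan-neuronal genes, in place of the whole library, left Scn3b and Scn4b called lower, ended the calls of Scn8a and Scn2b, and called Scn3a higher, 1 of 6370 genes called higher under that scaling.

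Total counts ran from 14965464 to 16067000 per library. Levels are given in CPM, counts relative to the scaled total of each library, and means carry their SD over 3 libraries. Taf15 itself rose from 59.4 ± 5.64 CPM to 254 ± 16.1 CPM. Of the pan-neuronal genes, a list of 30 without the members, 19 were called lower and 0 higher, against 5.95% and 9.32% of all genes tested. Their summed level was 18597 to 19714 CPM in Control and 15253 to 16203 in TAF15 OE. Glial markers were higher, with 7 of 8 astrocyte markers (summed level 4118 to 5273 CPM in Control and 7764 to 8432 in TAF15 OE) and 7 of 8 microglia markers called higher (360 to 400 and 710 to 1080 CPM). In RNA from whole tissue, fewer cells of a type and less RNA per cell cannot be told apart. The part of this shift in the members' results was not tested, but the values relative to the pan-neuronal genes are given with them. Summed choroid plexus markers ranged from 146 to 4666 CPM among the Control libraries, lowest in Control 1, and from 1536 to 4991 in TAF15 OE, lowest in TAF15 OE 1.

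The beta genes lie together on chromosome 9 and most alpha genes on chromosome 2 (GRCm38, positions from the authors' table, the same in GENCODE M21). Scn2b (45117782 to 45130070, plus strand) ends 8324 bases before Scn4b (45138395 to 45154152, plus strand), and Scn3b is on the same chromosome at 40269217 to 40291618. Scn3a (65457118 to 65567627, minus strand), Scn2a (65620771 to 65767447, plus strand), Scn1a (66270778 to 66440840, minus strand) and Scn7a (66673425 to 66784914, minus strand) form a cluster on chromosome 2. Scn8a stands alone on chromosome 15 (100869858 to 101045938, plus strand). Within 100000 bases of the Scn2b and Scn4b pair, 2 other genes were tested: Il10ra, a chain of the interleukin-10 receptor, was higher (log2 fold change 1.25, SE 0.27, adjusted p = 0.0205 by edgeR), and Mpzl3, a membrane adhesion protein gene, was not called (-0.14, SE 0.22). Genes on the opposite strand overlap Scn1a, Scn3a, Scn2b and Scn3b, and each held at most 94 counts over all 6 libraries.

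The sequences before the start sites are shown for the lower genes with an entry in the RefSeq promoter table (GRCm38.p6) and, for comparison, for Scn2a, an alpha gene that was not called. Each is printed 5′ to 3′ on the strand of the gene, up to 250 bases before the RefSeq start and without any base of an annotated exon, and capitals mark TCGTG, the core bound by NPAS4 with its partners.
Scn8a, chr15:100870395-100870644: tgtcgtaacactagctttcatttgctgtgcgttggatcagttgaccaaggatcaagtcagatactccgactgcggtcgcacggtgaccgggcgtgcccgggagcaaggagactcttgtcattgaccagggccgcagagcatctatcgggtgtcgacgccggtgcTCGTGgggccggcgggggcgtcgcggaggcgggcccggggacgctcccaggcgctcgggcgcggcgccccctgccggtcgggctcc
Scn2b, chr9:45117626-45117781: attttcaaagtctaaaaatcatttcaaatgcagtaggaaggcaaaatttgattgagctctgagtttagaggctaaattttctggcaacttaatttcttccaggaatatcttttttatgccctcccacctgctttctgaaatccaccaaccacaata
Scn4b, chr9:45138374-45138394: gtcgtccgcagcgggcaagcc
Scn2a, chr2:65620519-65620768: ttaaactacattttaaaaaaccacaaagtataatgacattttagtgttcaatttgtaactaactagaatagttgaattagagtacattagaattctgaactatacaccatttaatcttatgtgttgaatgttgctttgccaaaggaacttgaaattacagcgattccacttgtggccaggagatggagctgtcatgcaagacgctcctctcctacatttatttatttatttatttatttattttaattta

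The windows of the neighbours Scn2b and Scn4b, both lower, were unlike. G and C made up 38.4% of the 250 bases before the RefSeq start of Scn2b (45117626 to 45117875) and 66.0% of those of Scn4b (45138374 to 45138623). The median was 52.4% over 32851 promoters in the table. Both windows run past the gene starts given above (45117782 and 45138395) into exon sequence, and only the 156 and 21 bases printed lie before those starts. The window of Scn8a shown here, which lies inside the gene as placed above (start 100869858), held 68.0% and that of Scn2a 29.6%. A second start in the table for each of these genes, not shown, had 53.2%. On either strand, TCGTG was found in the full windows of Scn4b, Scn1a and the Scn8a start shown, but not the second Scn8a start, and in 13.3% of all windows. The match of Scn4b does not lie within the 21 bases printed. TATAAA, the element bound by the TATA-binding protein of TFIID, was found in 12.4% of all windows and among the members only before a second start of Scn2a. GGGCGG, which Sp1 binds, was found before Scn7a alone (32.7% of all windows), and TGACGTCA, which CREB binds, before none of the 6 members in the table (1.55% of all windows).

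Scn4b encodes the beta-4 subunit, whose short intracellular tail can block the open pore and produces resurgent sodium current in fast-spiking neurons. It stood at 22.5, 18.8 and 20.7 CPM in Control 1, 2 and 3 and at 7.41, 6.71 and 8.44 CPM in TAF15 OE 1, 2 and 3. Every TAF15 OE library was below every Control library, as in 15.5% of all genes tested. Its log2 fold change was -1.45 (SE 0.13, adjusted p = 1.49e-04 by edgeR, 95% interval -1.75 to -1.16), and it had the smallest p of all genes that were lower. Relative to the pan-neuronal genes it stood at 1.09 ± 0.0682 counts per 1000 pan-neuronal counts in Control and at 0.481 ± 0.0634 in TAF15 OE, again without overlap. The share of all genes without overlap on this scale is not given here.

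Scn3b encodes the beta-3 subunit, which is found through much of the forebrain and is prominent in the hippocampus. Its level was 350.5, 268.5 and 275.4 CPM in Control 1, 2 and 3 and 188, 146 and 174 CPM in TAF15 OE 1, 2 and 3. The groups did not overlap, and Control 1 stood above the other libraries. The log2 fold change was -0.82 (SE 0.12, adjusted p = 0.00427 by edgeR, 95% interval -1.10 to -0.53). Without Control 1 it was -0.69, the smallest of the fits that left out a library, and stayed called. Scn3b stood at 15.7 ± 1.84 counts per 1000 pan-neuronal counts in Control and 10.8 ± 1.20 in TAF15 OE, also without overlap.

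Scn2b encodes the beta-2 subunit, which is cut by the beta-secretase BACE1 and promotes the delivery of alpha subunits to the surface. It stood at 339, 293 and 291 CPM in Control 1, 2 and 3 and at 262, 213 and 234 CPM in TAF15 OE 1, 2 and 3. All TAF15 OE libraries were below all Control libraries, and the fitted difference was -0.38 on the log2 scale (SE 0.089, adjusted p = 0.0158 by edgeR). Among the 4 called members Scn2b was the one with the most lost calls, 7 of 18 alternative fits. Leaving out Control 1, TAF15 OE 2 or TAF15 OE 3 ended its call (adjusted p = 0.0618, 0.0795 and 0.0518 by edgeR), as did limma-trend on FPKM (0.0518 to 0.110). The call held in the other 11, among them the replicate number as a block (adjusted p = 0.00115 by edgeR). Relative to the pan-neuronal genes the groups overlapped, at 16.2 ± 0.871 counts per 1000 in Control and 15.1 ± 1.21 in TAF15 OE, and scaling on those genes gave a log2 fold change of -0.10 (adjusted p = 0.280 by edgeR).

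Scn8a encodes Nav1.6, the main alpha subunit of the mature axon initial segment and of nodes of Ranvier. Its level was 435, 367 and 443 CPM in Control 1, 2 and 3 and 316, 276.5 and 309 CPM in TAF15 OE 1, 2 and 3. The groups did not overlap, and the log2 fold change was -0.47 (SE 0.085, adjusted p = 0.00514 by edgeR). The call held with each library left out, at adjusted p of 0.00318 to 0.0304. With scaling on pan-neuronal genes the log2 fold change was -0.19 (adjusted p = 0.0758), and the levels of 21.9 ± 2.01 counts per 1000 pan-neuronal counts in Control and 19.2 ± 1.23 in TAF15 OE overlapped.

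**Figure D1:**
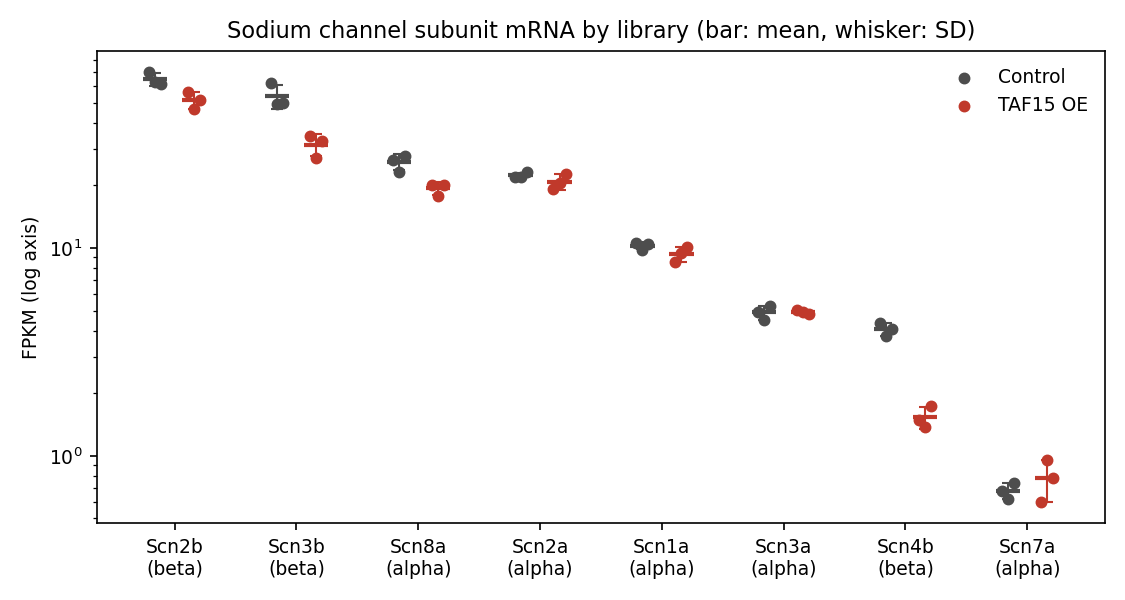
FPKM, a level per gene length (log axis), of the 8 sodium channel genes in each library, ordered by their mean in Control. Points are libraries, bars are group means and whiskers SD. The groups part in Scn2b, Scn3b, Scn8a and Scn4b, with TAF15 OE lower, and overlap in the other genes.

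The other alpha genes of mature neurons did not pass the test. Scn2a encodes Nav1.2, the alpha subunit of excitatory neurons that lies in unmyelinated axons and the proximal initial segment. It stood at 291.5, 279.5 and 298.5 CPM in Control 1, 2 and 3 and at 244.5, 256 and 282 CPM in TAF15 OE 1, 2 and 3, so that TAF15 OE 3 lay among the Control libraries. Scn1a encodes Nav1.1, best known from parvalbumin interneurons, and stood at 123, 109 and 117 CPM in Control and at 95.5, 103 and 110.1 in TAF15 OE, where again only TAF15 OE 3 reached the Control range. Neither was called: the log2 fold change was -0.15 for Scn2a (SE 0.071, adjusted p = 0.184 by edgeR, 95% interval -0.31 to 0.005) and -0.18 for Scn1a (SE 0.076, adjusted p = 0.150, 95% interval -0.34 to -0.009). Scaling on pan-neuronal genes turned both signs, to 0.13 for Scn2a and 0.11 for Scn1a, and neither was called there (adjusted p = 0.197 and 0.308). Of 8 parvalbumin interneuron markers, 2 were called lower, against 5.95% of all genes tested and 19 of 30 pan-neuronal genes. These were Pvalb (-0.48, adjusted p = 0.0263 by edgeR) and Kcnc2 (-0.25, adjusted p = 0.0438). Kcnc1 (-0.19), Lhx6 (-0.081), Erbb4 (0.16), Tac1 (-0.12), Syt2 (-0.40) and Cox6a2 (0.23) were not called.

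Scn3a encodes Nav1.3, the alpha subunit most abundant before birth. Its level was 64.0, 56.0 and 66.4 CPM in Control 1, 2 and 3 and 62.6, 60.5 and 58.5 CPM in TAF15 OE 1, 2 and 3, with the TAF15 OE libraries inside the Control range. The log2 fold change was -0.037 (SE 0.082, adjusted p = 0.811 by edgeR, 95% interval -0.22 to 0.14), and its sign turned with total counts as the only scaling (0.010), on log2 FPKM (0.010 to 0.012) and without Control 3 (0.011). Relative to the pan-neuronal genes, however, every TAF15 OE library was above every Control library, at 3.87 ± 0.0377 counts per 1000 pan-neuronal counts against 3.27 ± 0.276. The share of all genes apart in this way is not given here. With that scaling Scn3a was among 6370 genes called higher (0.24, adjusted p = 0.0365 by edgeR). Its log2 fold change was below the median of all genes in that fit (0.31).

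Scn7a encodes Nax, a sodium-sensing relative of the alpha subunits that is not opened by voltage in the usual way and is found in glia and in some neurons. It was the scarcest member, at 76, 69 and 83 counts in Control 1, 2 and 3 and 69, 105 and 92 counts in TAF15 OE 1, 2 and 3. The groups overlapped and the interval was wide (log2 fold change 0.145, SE 0.21, adjusted p = 0.699 by edgeR, 95% interval -0.31 to 0.60). Its sign turned without TAF15 OE 2 (-0.042).

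**Figure D2:**
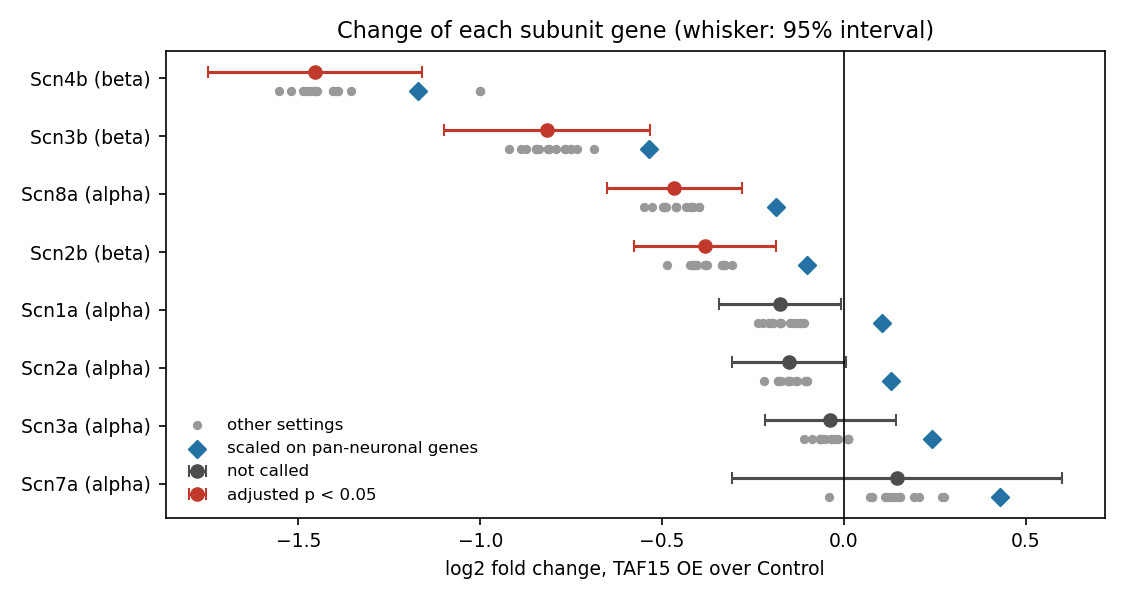
Log2 fold change, TAF15 OE over Control, of each sodium channel gene, with the 95% interval of the edgeR fit as whiskers. Small grey points are the other settings and blue diamonds the fit scaled on pan-neuronal genes, in which Scn4b and Scn3b kept a negative value past the threshold and Scn3a, Scn2a, Scn1a and Scn7a lay above 0.

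The mean log2 fold change was -0.88 over the 3 beta genes and -0.14 over the 5 alpha genes, a difference of -0.75 that rests on Scn4b and Scn3b, since the beta gene Scn2b (-0.38) was no lower than the alpha gene Scn8a (-0.47). As the mean of log2 CPM centred on each gene's mean over the libraries, the beta genes stood 0.49, 0.38 and 0.24 above the alpha genes in Control 1, 2 and 3 and 0.19, 0.57 and 0.34 below them in TAF15 OE 1, 2 and 3 (-0.192, -0.573 and -0.344). This difference hardly depends on the scaling of a library, which moves both means alike, and the difference between the groups ran from -0.83 to -0.65 with each library left out. On the FPKM scale the summed level of the 3 beta genes was 2.1, 1.93 and 1.72 times that of the alpha genes in Control 1, 2 and 3 and 1.72, 1.40 and 1.47 times in TAF15 OE 1, 2 and 3, so that Control 3 lay at the level of TAF15 OE 1. No test was run on these summed values, because the members were chosen with results of these data known.

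The order of the levels per length was the same in both groups but for one pair. Scn2b and Scn3b were the most abundant members in Control, with medians of 62.9 and 49.8 FPKM and ranges that touched, and in TAF15 OE their medians were 51.4 and 32.7 FPKM with ranges apart. In Control, Scn8a (23.3 to 27.7 FPKM) was above Scn2a (21.9 to 23.1 FPKM) in all 3 libraries. In TAF15 OE their ranges overlapped, at 17.8 to 20.1 FPKM for Scn8a and 19.2 to 22.7 FPKM for Scn2a, and Scn2a was the higher in TAF15 OE 2 and 3. Below them followed Scn1a, Scn3a, Scn4b and Scn7a in both groups, each with ranges apart from the next.

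Within the alpha genes, Scn8a gave a smaller share of the summed FPKM in TAF15 OE and Scn3a a larger one. Scn8a made up 41.0%, 38.7% and 41.2% of it in Control 1, 2 and 3, against 37.5%, 33.3% and 34.4% in TAF15 OE 1, 2 and 3. Scn3a made up 7.63%, 7.47% and 7.82% in Control, against 9.41%, 9.21% and 8.22% in TAF15 OE. Neither share overlapped between the groups, whereas those of Scn1a (at most 16.4% in Control and 17.6% in TAF15 OE) and Scn2a (at most 36.5% and 38.8%) did. The small share of Scn7a, at 1.04% to 1.11% in Control and 1.12% to 1.78% in TAF15 OE, was also apart, but by little. Within the 3 beta genes the share of Scn2b was 51.4% to 54.3% in Control and 59.9% to 62.0% in TAF15 OE, since Scn3b (42.4% to 45.4% and 36.2% to 38.1%) and Scn4b (3.19% to 3.54% and 1.62% to 2.02%) were more reduced. Shares of a sum are tied to each other and were not tested.

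**Figure D3:**
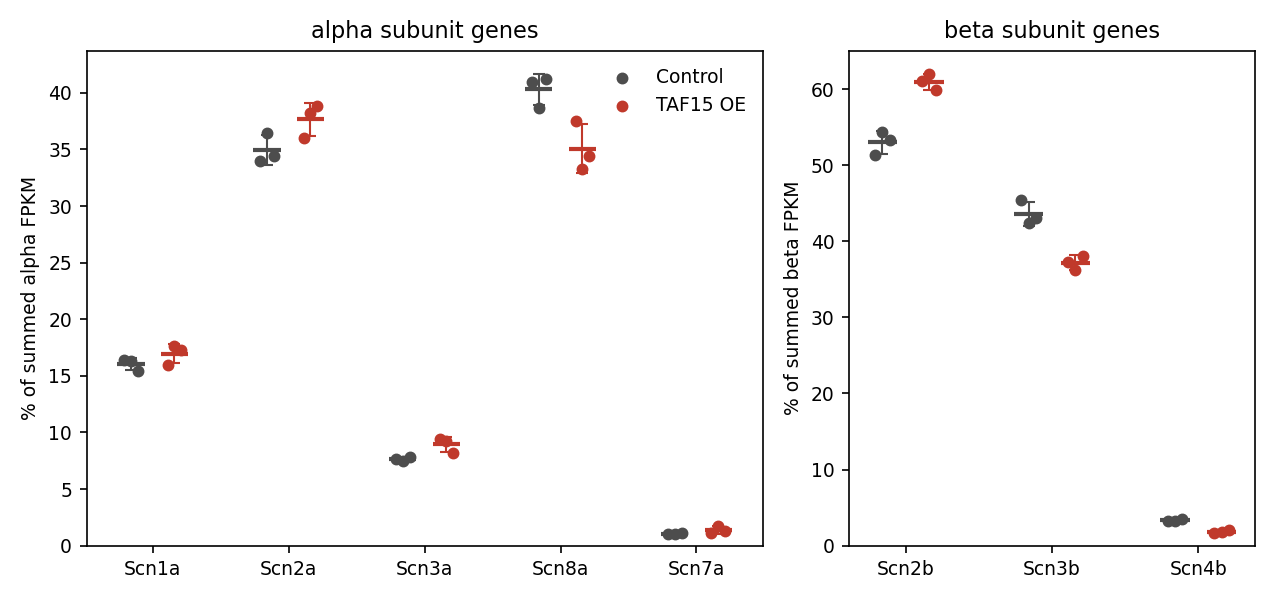
Share of each gene in the summed FPKM of the 5 alpha genes (left) and of the 3 beta genes (right), in percent, by library. Points are libraries, bars are means and whiskers SD. The shares of Scn8a, Scn3b and Scn4b lie lower, and those of Scn3a, Scn7a and Scn2b higher, in all 3 TAF15 OE libraries.

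Scn9a, an alpha gene known from pain-sensing neurons that is not among the 8 members, was scarce. Its level was 4.15 ± 0.473 CPM in Control, against 4.74 ± 0.566 CPM in TAF15 OE, and it was not called (0.19, SE 0.20, adjusted p = 0.585 by edgeR). The muscle gene Scn4a and the sensory neuron genes Scn10a and Scn11a had at most 5 counts in any library and were not tested.

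Proteins that bind or modify sodium channels went both ways. Of 27 genes on this list, 7 were called lower and 3 higher, with a median log2 fold change of -0.089, but scaling on pan-neuronal genes gave 3 lower and 11 higher. For this list and those below, the comparison is all 16758 genes tested, of which 5.95% were called lower and 9.32% higher. With scaling on pan-neuronal genes 144 of all genes were lower and 6370 higher. The higher calls on this list were near the share over all genes under both scalings. The lower genes with the smallest p were Camk2b (-0.67, SE 0.093), a subunit of the calcium and calmodulin-dependent kinase, Crmp1 (-0.46, SE 0.072), which encodes a collapsin response mediator protein, and the calmodulin gene Calm3 (-0.44, SE 0.082). The higher genes were S100a10 (0.86, SE 0.13), which encodes a channel-trafficking partner of annexin A2, the glial receptor phosphatase gene Ptprz1 (0.35, SE 0.065) and the contactin gene Cntn2 (0.26, SE 0.072). The call of Cntn2 was lost without Control 1, Control 2, TAF15 OE 1 or TAF15 OE 2, at adjusted p of 0.0990 to 0.146. Among the FGF homologous factors, which bind the alpha subunit tail and were looked at after their values were seen, Fgf13 was lower (-0.30, SE 0.074, adjusted p = 0.0205 by edgeR), and Fgf11 (-0.41, adjusted p = 0.0649), Fgf12 (-0.054) and Fgf14 (0.033) were not called.

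Of 20 genes of the axon initial segment and the node, where the channels are anchored, 7 were called lower and 1 higher (median -0.14). The lower genes with the smallest p were Cntnap1 (-0.54, SE 0.086) and Cntnap2 (-0.35, SE 0.075), which encode contactin-associated proteins of the axon beside the node, and Trim46 (-0.39, SE 0.075), which bundles microtubules in the initial segment. Of the ankyrin and spectrin genes of the anchoring scaffold, named after their values were seen, the ankyrin genes Ank3 (-0.15, adjusted p = 0.288 by edgeR) and Ank2 (-0.056, adjusted p = 0.680) were not called. The spectrin genes Sptan1 (-0.27, adjusted p = 0.0213 by edgeR) and Sptbn4 (-0.29, adjusted p = 0.0492) were lower. The higher gene was Gldn (1.48, SE 0.27), which encodes gliomedin of the node, from 1.72 ± 0.0993 to 4.82 ± 1.40 CPM. The number called lower on this list was 3 without Control 3 or TAF15 OE 2, 4 without Control 1 and 1 with scaling on pan-neuronal genes.

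Genes of other sodium-carrying proteins went both ways. In the sodium leak channel complex, 2 of 4 genes were lower, the auxiliary subunit genes Fam155a (-0.31, SE 0.068) and Unc80 (-0.29, SE 0.079), while the pore gene Nalcn was not called (-0.058, SE 0.070). The call of Unc80 was lost without Control 1, Control 3, TAF15 OE 2 or TAF15 OE 3, at adjusted p of 0.0540 to 0.122, and 0 genes of this complex were called lower with scaling on pan-neuronal genes, where Fam155a stood at -0.028 and Unc80 at -0.007. Of 15 tested genes of the sodium-potassium pump, which restores the gradient that the channels use, 5 were higher and 2 lower. The lower genes included the beta subunit gene Atp1b1 (-0.26, SE 0.067). The higher genes included the glial beta subunit gene Atp1b2 (0.38, SE 0.078) and the regulator gene Fxyd1 (1.34, SE 0.20). With scaling on pan-neuronal genes, 0 pump genes were called lower. The call of Atp1b1 was lost without Control 1, Control 2, Control 3, TAF15 OE 2 or TAF15 OE 3, at adjusted p of 0.0510 to 0.0783, and its sign turned with scaling on pan-neuronal genes (0.014).

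**Figure D4:**
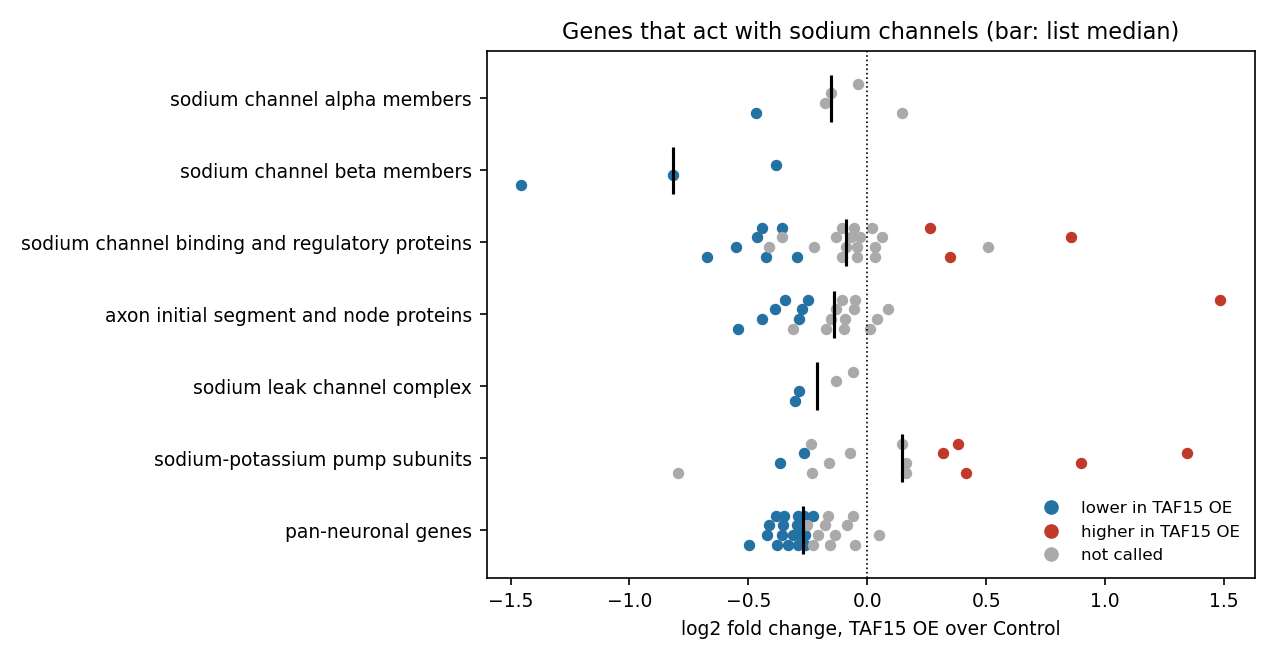
Log2 fold change, TAF15 OE over Control, of the 8 sodium channel genes and of lists of genes that act with them, 1 point per gene, with a bar at the list median. Blue points were called lower, red points higher and grey points were not called. Among the sodium channel genes Scn4b and Scn3b lie farthest to the left, and the pump genes are split.

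The genes whose levels followed those of the 4 lower members most closely were found by the root mean square difference of centred log2 CPM over the 6 libraries, among 13202 protein-coding genes whose log2 CPM averaged 1 or more. The measure spans both groups, so genes close to a lower member are lower by construction. For Scn4b these were Slc26a10, of an anion transporter family (difference 0.155), and the dentate granule neuron genes Dsp (0.178) and Tdo2 (0.219). For Scn3b they were Gm2115 (0.044), Wipf3 (0.085) and Adamts17 (0.088). For Scn8a they were Nos1ap (0.025), Plag1 (0.032) and the calcium channel gene Cacna1i (0.037), and for Scn2b Cecr6 (0.023), the intermediate filament gene Ina (0.034) and Pcdh20 (0.037). Of 9 dentate granule markers, 4 were called lower (Dsp, Tdo2, Lct and Calb1), against 5.95% of all genes tested and 19 of 30 pan-neuronal genes. Dsp and Tdo2 are the genes named above, so this count is not separate from that search. Prox1, which defines granule neurons (-0.16, adjusted p = 0.623 by edgeR), C1ql2 (-0.028), Stxbp6 (-0.006), Plk5 (0.066) and Dock10 (0.114) were not called. The summed granule markers overlapped between groups, at 725 to 858 CPM in Control and 564 to 778 in TAF15 OE. The CA1 pyramidal markers, of the field that was injected, had 2 of 7 called lower, and their summed level was 854 to 894 CPM in Control and 579 to 764 in TAF15 OE. Of 8 markers of striatal neurons, in which Scn4b is abundant, 1 was called higher and 1 lower, with summed levels of 203 to 244 CPM in Control and 230 to 282 in TAF15 OE. The part of these cells in the result for Scn4b was not tested.

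In the authors' deposited table the same 4 members had an adjusted p below 0.05 and a negative log2 fold change, as did 7.53% of the genes with an adjusted p there. The authors' deposited table gives log2 fold changes of -1.49 for Scn4b, -0.85 for Scn3b, -0.50 for Scn8a and -0.41 for Scn2b. The DESeq2 fit made here gave the same values, so the authors' table is no separate check on these calls. Of these 4 members only Scn4b is marked as significant in the authors' deposited table. Scn3b, Scn8a and Scn2b are not marked, at adjusted p of 1.43e-10, 5.92e-06 and 6.69e-04 by the authors' test, which is not named. The mark therefore does not rest on an adjusted p below 0.05 alone.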

How the data were processed

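The submitters' processing notes list HISAT2 2.1.0, TopHat2, Bowtie2 2.2.3 and CASAVA, and the build GRCm38. What each tool did, how reads were counted and whether strand was used is not given in the sources used here. Raw counts per Ensembl gene were deposited, with the authors' FPKM, which matched the counts divided by length and total (largest relative deviation 2.57e-09), and a comparison table. That table, made by the authors, repeats the counts and gives a mean normalised signal, a fold change as a ratio and as log2, and p-values whose test is not named. Its log2 fold changes of the members equal those of the DESeq2 fit made here.

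Counts were tested in edgeR 4.0.16 (R 4.3.3): filterByExpr (minimum count 10, total 15), TMM, robust quasi-likelihood F-test with group as the only term, and Benjamini-Hochberg adjustment over 16758 genes, called below 0.05. Standard errors come from the F statistic. Alternatives were DESeq2 1.42.0 and its size factors, total counts, scaling on 30 pan-neuronal genes, other filters, limma 3.58.1 (voom, and trend on log2 FPKM plus 1 or 0.1), the replicate number as a block and libraries left out. The fit was also run on simulated counts, the outcome of which is not reported here. Beside all members, up to 3 called genes per list and direction with the smallest p were named, and the 3 genes closest to each called member. Some genes that this rule names are not reported here. The members, lists and tests were chosen with earlier results of these data known. Total counts were 14965464 to 16067000 per library, and the common biological coefficient of variation was 13.1%. Figures were drawn with matplotlib 3.10.9.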

Additional observations from a re-analysis of the deposited data

How the results depend on the processing

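Scn4b and Scn3b were called lower in the main fit and in all 18 alternatives, with log2 fold changes of -1.55 to -1.001 and -0.92 to -0.54. Scn8a was not called in 2 of them, scaling on pan-neuronal genes (adjusted p = 0.0758) and limma-trend on log2(FPKM + 1) without a filter (0.0699), and Scn2b in 7. The members called lower numbered 2 in each of these 2 settings and 3 to 4 with each library left out, and 1 member, Scn3a, was called higher with pan-neuronal scaling. That scaling moved the median log2 fold change of all genes to 0.31 and the share of calls that were higher from 61.0% to 97.8% (6370 higher, 144 lower), against 72.0% with total counts. Signs turned with pan-neuronal scaling for Scn1a (0.106), Scn2a (0.130), Scn3a (0.242) and Atp1b1 (0.014), for Scn3a with total counts (0.010), on FPKM (0.010 to 0.012) and with libraries left out (-0.109 to 0.011), and for Scn7a with libraries left out (-0.042 to 0.269). The cause was not tested. Over all genes, calls went from 1562 higher and 997 lower to 877 to 1293 higher and 365 to 1208 lower with each library left out. On FPKM, 449 (pseudocount 1), 473 (pseudocount 0.1) or 173 (no filter) were lower and 496 higher without a filter. Without a count filter edgeR called 1568 lower. Beta minus alpha kept its sign throughout. With the replicate number as a block, the same 4 members were lower (Scn4b -1.46, Scn3b -0.81, Scn8a -0.46, Scn2b -0.38), and 1904 genes were higher and 1387 lower over all. In that fit the SE was 0.0656 for Scn3b (0.124 without the block), 0.0566 for Scn8a (0.0851), 0.059 for Scn2b (0.089) and 0.130 for Scn4b (0.134). Libraries of one number shared deviations weakly (correlations of 0.126, 0.078 and 0.087), though each was the highest for its library. The labels do not say whether libraries of one number belong together, and the main fit, which left the number out, ignores any such pairing. Scn7a had the fewest counts of the members, 69 to 105 a library.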
